A study of Homo sapiens with 8 samples.

Results

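The genes described here encode 49 subunits of the Polycomb repressive complexes PRC1 and PRC2 and of the BAF and PBAF chromatin remodelers, of 34788 genes whose reads could be summed from the files. The rule was membership of a complex and used no measured value, although the list was drawn up with earlier results of these data known: 26 belong to PRC1 or PRC2 and 23 to BAF, PBAF or the non-canonical BAF complex. The cells were A673/TR/shFEZF1 cells, that is, the Ewing sarcoma cell line A673 with a tetracycline repressor and an shRNA against the transcription factor FEZF1 that doxycycline switches on. RNA was sequenced from a polyclonal population and from clones 3, 5 and 6, each in the absence of doxycycline (untreated, 4 libraries) and after 72 h with 1 µg/mL doxycycline (4 libraries). All 8 cultures carried the shRNA construct and grew in blasticidin, puromycin and zeocin, and each clone is a single line. No culture without the shRNA received doxycycline, so the drug and the shRNA cannot be told apart.

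Polycomb complexes keep genes silent. PRC2 holds the methyltransferase EZH2 or EZH1 with EED and SUZ12 and methylates histone H3 at lysine 27, and PRC1 holds the ubiquitin ligase RING1 or RNF2 with 1 PCGF protein and ubiquitinates histone H2A. BAF complexes use the ATPase SMARCA4 or SMARCA2 to move nucleosomes and oppose Polycomb at many genes. When neural progenitors become neurons, BAF exchanges the subunits ACTL6A, PHF10 or DPF2, and SS18 for the neural types ACTL6B, DPF1 or DPF3, and SS18L1. In Ewing sarcoma the fusion protein EWSR1-FLI1 recruits BAF to GGAA repeats, and EZH2 is among the genes it activates.

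Between 26719886 and 42422421 reads per library were assigned to transcripts, and 89.9% to 91.1% of them lay on transcripts that could be matched to a gene symbol. Levels below are in CPM (reads of a gene scaled to the library size after TMM normalization) or, where 2 genes are compared, in TPM (the authors' abundance estimate, which also allows for transcript length). For 41 of the 49 members the matched reads reached at least 80% of the mean that the authors' own table gives, and for 8 they did not (PHF1 79.2%, PCGF1 75.9%, PHC1 66.0%, PHC3 65.1%, SMARCD3 34.9%, SS18L1 34.3%, BRD7 12.8% and DPF2 2.40%). Levels of these 8 are therefore underestimates. FEZF1, the target of the shRNA, was at 96.4, 70.5, 107 and 74.4 CPM in the untreated polyclonal population and clones 3, 5 and 6 and at 60.6, 43, 60.8 and 36.4 CPM in the same cells with doxycycline. Every doxycycline library lay below every untreated one, and the log2 fold change was -0.81 (standard error 0.0726; edgeR's quasi-likelihood test with origin as a block, Benjamini-Hochberg adjusted p = 0.00595). All 9 Ewing sarcoma markers were detected, CD99 among them at 801 to 2367 CPM. Of 15 neuron markers 10 passed the filter on low counts, led by the tubulin TUBB3. The others, RBFOX3, STMN2, DCX, NEUROD1 and ELAVL4, were at 0.363 CPM or less in each library, ELAVL4 at 0 in all of them. The 0 of ELAVL4 does not show absence, since the authors' mean is 10.9 normalized counts and 0% of it was matched. For RBFOX3 27.3% was matched.

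The members covered a wide range of levels. Averaged over the 8 libraries, 8 members stood at 100 TPM or more, 31 between 10 and 100, 9 between 1 and 10, and 1 below 1. PHC2, a sterile alpha motif subunit that lets PRC1 form chains, was the most abundant at 175, 208, 167 and 173 TPM without and 165, 195, 173 and 155 TPM with doxycycline. RBBP7, RBBP4, SMARCA4, ACTL6A, EZH2, PHF19 and SMARCD1 were the other members above 100 TPM, with means between 102 and 165 TPM. ACTL6B, the neuron-specific actin-like subunit, was the least abundant, with 8 reads over all 8 libraries, at most 2 in any of them and 0 in 2 of them. A count of 0 allows up to 3 reads, which here is 0.0759 to 0.126 CPM depending on the library. ACTL6B was the 1 member that did not pass the filter on low counts.

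To see which subunits changed when the shRNA was induced, each doxycycline culture was compared with the untreated culture of the same origin. Of 48 members tested, 5 (10.4%) changed at an adjusted p below 0.05, against 7.62% of the 15991 genes tested. PHF1, MTF2 and PCGF5, all Polycomb genes, rose, and SMARCD2 and SMARCD3, both BAF genes, fell, while the share of all genes called higher was 3.72% and that called lower 3.9%. The median log2 fold change of the members was 0.01 (all genes 0.00), with 27 members above 0 and 21 below. Changes were small: 28 of the 48 members differed by less than 0.1 on the log2 scale, 58.3% against 35.4% of all genes, and the members' estimates were also the more precise (median standard error 0.0707 against 0.106). Of the 43 members that did not pass the test, 39 had a 95% interval that lay within 0.5 log2 units of 0, and the intervals of BRD7, DPF1, DPF2 and DPF3 reached further. The members' direction was the same in all 4 pairs of cultures for 16 of 48 (33.3%), as for 33.3% of all genes, and the 4 doxycycline libraries lay wholly above the 4 untreated ones for 3 members (PHF1, MTF2 and DPF3) and wholly below for none, 6.25% together against 4.95% of all genes. The shares called, of 1 direction in the 4 pairs and without overlap were thus close to those of all genes. Nothing in the labels says that the 2 cultures of an origin were repeated. With origin as a block, the p-values for doxycycline rest partly on how far the change varied between these 4 pairs. The quasi-likelihood test also draws the variation of each gene toward that of the other genes tested.

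**Figure D1:**
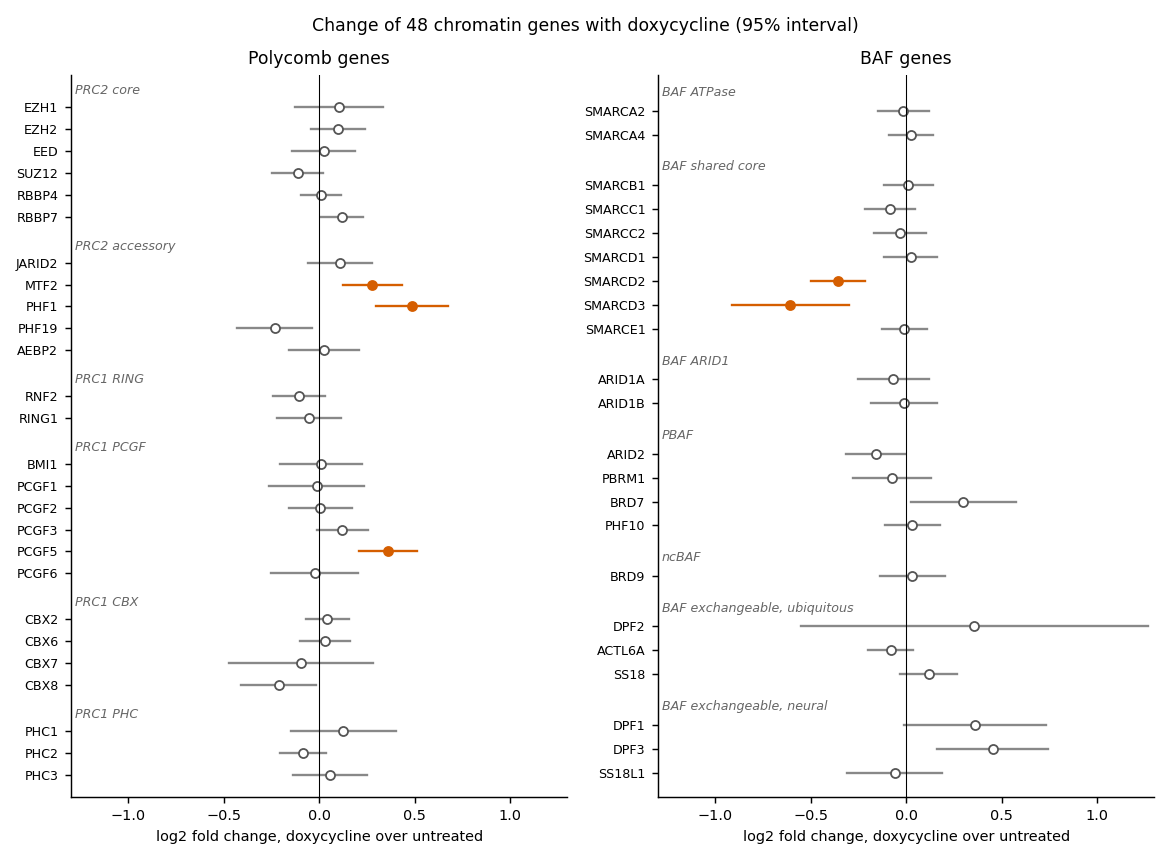
Log2 fold change of each of the 48 tested members (horizontal axis) with its 95% interval, by complex and role. Filled orange points are the 5 members with an adjusted p below 0.05, 3 to the right of 0 (PHF1, MTF2, PCGF5) and 2 to the left (SMARCD2, SMARCD3); most of the others straddle 0.

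Among the PRC2 core genes, the catalytic subunits were close to level. EZH2, the main methyltransferase of dividing cells, was at 170.3, 150.3, 184 and 192 CPM in the untreated polyclonal population and clones 3, 5 and 6, and at 175, 183, 185 and 200.1 CPM with doxycycline. The groups overlapped, although EZH2 was higher with doxycycline in 4 of 4 pairs, and the log2 fold change of 0.10 (95% interval -0.04 to 0.24) did not pass the test (edgeR adjusted p = 0.377). EZH1, its paralog in resting cells, was at 23.3, 17, 15.8 and 15.7 CPM and at 20.6, 20.7, 18.8 and 16.4 CPM in the same order, also overlapping, with a log2 fold change of 0.10 (95% interval -0.13 to 0.34, edgeR adjusted p = 0.575). EED, which binds the methylated histone, had a log2 fold change of 0.02 (-0.14 to 0.19), and SUZ12, the scaffold, -0.11 (-0.24 to 0.02), lower in 4 of 4 pairs without passing the test (edgeR adjusted p = 0.275). The histone chaperones RBBP4 and RBBP7, which PRC2 shares with other complexes, had log2 fold changes of 0.01 and 0.12 (edgeR adjusted p = 0.927 and 0.172). RBBP7 was higher in 4 of 4 pairs.

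The PRC2 accessory genes held the largest rise among the members. PHF1, MTF2 and PHF19 are the mammalian Polycomb-like proteins, which bind CpG-rich DNA and methylated histone H3 lysine 36 and bring PRC2 to its targets. PHF1 (chr6:33410412-33416439 of GRCh38, plus strand) was at 44.4, 42, 38.1 and 33.2 CPM in the untreated polyclonal population and clones 3, 5 and 6 and at 54.5, 54.4, 62.1 and 49.5 CPM with doxycycline. The lowest doxycycline library (clone 6) lay above the highest untreated one (the polyclonal population). PHF1 rose by 0.49 on the log2 scale (standard error 0.0814, means 39.4 ± 4.91 and 55.1 ± 5.22 CPM, SD, n = 4 each; edgeR adjusted p = 0.0181), a fold of 1.4. MTF2 (chr1:93079283-93139076, plus strand) was at 65.2, 62.1, 71.2 and 68.1 CPM without and 71.6, 84, 90.0 and 78.5 CPM with doxycycline, again without overlap between the groups, although only by a small margin between the untreated clone 5 and the treated polyclonal population. MTF2 rose by 0.28 (standard error 0.0667, means 66.6 ± 3.9 and 81 ± 7.85 CPM, SD, n = 4 each; edgeR adjusted p = 0.0465). PHF19 was at 66.4, 88.2, 59.4 and 78.6 CPM and 66.6, 64.4, 46.2 and 72.4 CPM, level in the polyclonal population and lower with doxycycline in the 3 clones, and its log2 fold change of -0.23 (95% interval -0.43 to -0.04) did not pass the test (edgeR adjusted p = 0.141). JARID2 and AEBP2, which belong to the other form of PRC2, had log2 fold changes of 0.11 (-0.06 to 0.28) and 0.03 (-0.16 to 0.21). JARID2 was higher with doxycycline in clones 3 and 5 but not in the polyclonal population or clone 6.

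**Figure D2:**
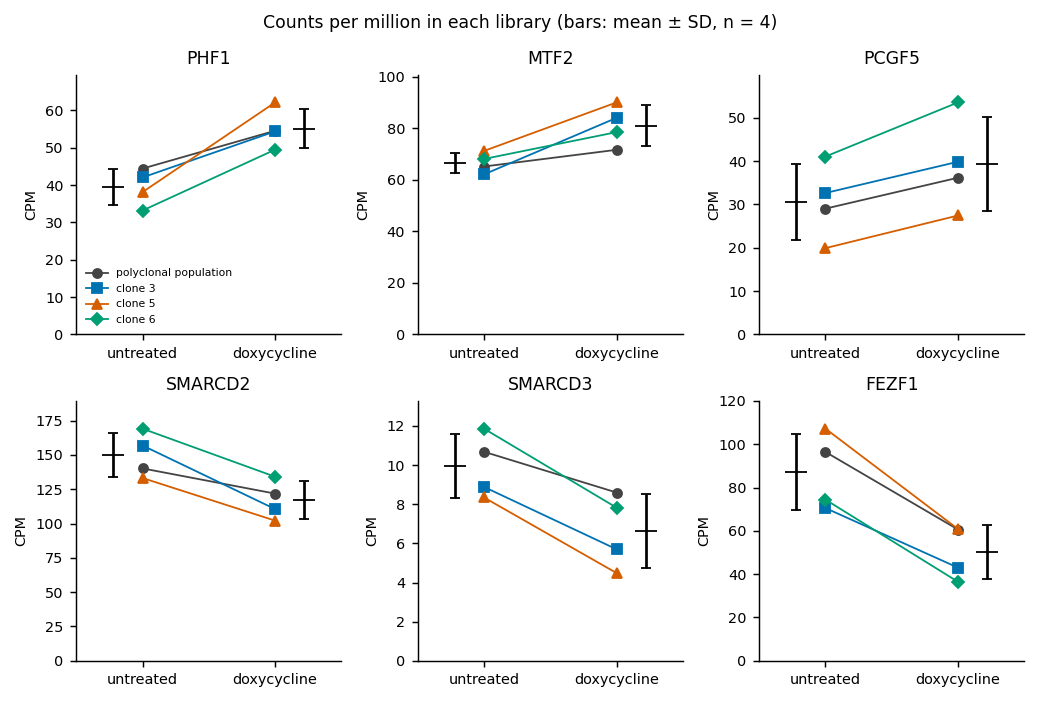
CPM of the 5 members that passed the test and of FEZF1 in each library, with lines joining the 2 cultures of an origin and bars for the mean ± SD of 4 libraries. Each line of PHF1, MTF2 and PCGF5 goes up and each line of SMARCD2, SMARCD3 and FEZF1 goes down; the groups are apart in PHF1, MTF2 and FEZF1 and overlap in the other 3 genes.

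The start sites of the 3 called members other than PCGF5, with its many reads on predicted transcripts, and SMARCD3, with few matched reads, are shown because the letters searched can be read in them. Each line gives the 250 bases before the start site of the RefSeq table for GRCh38.p14, 5′ to 3′ on the gene's own strand. Matches to CGGAAG or its reverse complement CTTCCG are in capitals. CGGAAG is a longer form of GGAA, the core that ETS proteins such as FLI1 bind. GGAA between other letters is not marked. MTF2 is at chr1:93079033-93079282 on the plus strand, PHF1 at chr6:33410764-33411013 on the plus strand, and SMARCD2 at chr17:63842686-63842935 on the minus strand; the PHF1 window lies inside the gene span given above.
MTF2: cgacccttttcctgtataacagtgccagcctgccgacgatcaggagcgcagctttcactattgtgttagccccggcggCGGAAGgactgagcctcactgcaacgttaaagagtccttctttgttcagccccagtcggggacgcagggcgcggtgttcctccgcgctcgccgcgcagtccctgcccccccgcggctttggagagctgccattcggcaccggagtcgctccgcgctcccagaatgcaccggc
PHF1: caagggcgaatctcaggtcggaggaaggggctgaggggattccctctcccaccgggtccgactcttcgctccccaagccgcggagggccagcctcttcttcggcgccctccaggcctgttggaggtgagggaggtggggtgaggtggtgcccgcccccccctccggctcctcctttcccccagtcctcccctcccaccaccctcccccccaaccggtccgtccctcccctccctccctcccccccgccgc
SMARCD2: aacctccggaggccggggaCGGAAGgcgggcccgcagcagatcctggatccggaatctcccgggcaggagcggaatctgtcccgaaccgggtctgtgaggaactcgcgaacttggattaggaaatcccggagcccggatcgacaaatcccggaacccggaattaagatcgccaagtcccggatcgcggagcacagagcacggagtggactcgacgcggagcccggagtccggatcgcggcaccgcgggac
MTF2 held 1 match, 172 bases before the start, and SMARCD2 held 1, 231 bases before it, so the letters stood before a gene that rose and a gene that fell, and PHF1 held none. The windows were rich in G and C, at 64.4% for MTF2, 72.4% for PHF1 and 65.6% for SMARCD2, with 25, 15 and 31 CG pairs, beside a median of 68.8% and 26 CG pairs over the 43 members in the table and 58.0% and 11 over all 27305 promoters. Of the 43 members 8 (18.6%) held CGGAAG on either strand, against 16.8% of all promoters, and 1 (2.33%, all promoters 2.99%) held the GGAA pair GGAAGGAA on either strand. The CCAAT box was found in 20 of 43 (46.5%, all promoters 33.0%), and the E2F letters TTTGGCGC and TTTCGCGC in none (all promoters 0.553% and 0.469%). These are matches of letters and not sites of binding.

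In PRC1, PCGF5 passed the test and the other 14 genes did not. PCGF5 (chr10:91156219-91284337, plus strand) builds a variant PRC1 without a CBX protein. It was at 29, 32.6, 19.9 and 41.1 CPM in the untreated polyclonal population and clones 3, 5 and 6 and at 36.2, 39.9, 27.5 and 53.5 CPM with doxycycline. Each pair moved up by a similar amount, but the groups overlapped widely, with clone 5 lowest and clone 6 highest in both. The log2 fold change was 0.36 (standard error 0.0656, means 30.7 ± 8.75 and 39.3 ± 10.9 CPM, SD, n = 4 each; edgeR adjusted p = 0.0223). The curated PCGF5 transcripts, with 56.4% of its reads, were at 18.5, 17.9, 15.1 and 25.4 CPM without and 21.1, 20.5, 8.98 and 30.8 CPM with doxycycline, and the predicted ones at 10.6, 14.8, 4.85 and 15.7 and 15, 19.3, 18.5 and 22.8 CPM. The predicted transcripts were higher with doxycycline in 4 of 4 pairs and the curated ones in 3, with clone 5 going down. With curated transcripts alone the log2 fold change was -0.01 (edgeR adjusted p = 0.982), and without clone 5, an alternative chosen after seeing the data, it was 0.22 (edgeR adjusted p = 0.334), so neither passed the test. Salmon divides reads between nearly identical transcripts by estimate. By TPM over the 8 libraries, a curated transcript annotated as non-coding made up 65.8% of PCGF5. The main curated coding transcript made up 10.3%, at 0 TPM in untreated clone 3 and treated clone 5.

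Of the other PCGF genes, BMI1, PCGF1, PCGF2 and PCGF6 had log2 fold changes between -0.02 and 0.01, and PCGF3 had 0.12 (-0.01 to 0.25), higher in 4 of 4 pairs (edgeR adjusted p = 0.236). The ligases RNF2 and RING1 were at -0.11 (-0.24 to 0.03) and -0.05 (-0.22 to 0.11), RNF2 lower in 4 of 4 pairs (edgeR adjusted p = 0.307). The CBX proteins, which read the methylated lysine 27, had log2 fold changes of 0.04 (CBX2), 0.03 (CBX6), -0.09 (CBX7) and -0.21 (CBX8). CBX8 was lower in the 3 clones and level in the polyclonal population, and did not pass the test (edgeR adjusted p = 0.174). PHC1, PHC2 and PHC3 had 0.13, -0.08 and 0.06, none of them in 1 direction in all 4 pairs.

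In BAF, the 2 genes that passed the test were paralogs. SMARCD1, SMARCD2 and SMARCD3 encode alternative forms of the same subunit. SMARCD2 (chr17:63832081-63842685, minus strand) was at 140.2, 157, 133 and 169 CPM in the untreated polyclonal population and clones 3, 5 and 6 and at 122, 110.5, 102 and 134 CPM with doxycycline. It was lower with doxycycline in each of the 4 pairs, and the groups touched only where treated clone 6 lay above untreated clone 5. SMARCD2 fell by 0.36 on the log2 scale (standard error 0.0615, means 149.8 ± 16.2 and 117 ± 13.9 CPM, SD, n = 4 each; edgeR adjusted p = 0.0196), and all its reads lay on curated transcripts. SMARCD3 (chr7:151238780-151277149, minus strand), the form of heart and muscle, was at 10.7, 8.88, 8.35 and 11.9 CPM without and 8.6, 5.7, 4.48 and 7.82 CPM with doxycycline, lower in each of the 4 pairs with overlap between the groups. SMARCD3 fell by 0.61 (standard error 0.131, means 9.94 ± 1.62 and 6.65 ± 1.9 CPM; edgeR adjusted p = 0.0367), but only 34.9% of the reads of the authors' mean were matched to it. SMARCD1 was at 194 ± 13.5 CPM without and 197 ± 21.2 CPM with doxycycline (SD, n = 4 each), with a log2 fold change of 0.02 (-0.11 to 0.16). The log2 TPM ratio of SMARCD3 to SMARCD1 was -3.39 ± 0.31 without and -4.01 ± 0.63 with doxycycline (SD, n = 4 each). It was lower with doxycycline in 4 of 4 pairs, by differences of -0.35 in the polyclonal population and -0.56, -1.17 and -0.42 in clones 3, 5 and 6. An exact permutation test that ignores the pairing gave a 2-sided p of 0.171, which does not show that the ratio stayed the same.

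The ATPases were level. SMARCA4 was at 457, 485, 495 and 384 CPM without and 493, 476, 509 and 377 CPM with doxycycline (polyclonal population, clones 3, 5 and 6), with clone 6 lowest in both groups and a log2 fold change of 0.02 (-0.09 to 0.14). SMARCA2 was at 55.8, 54.8, 91.1 and 54.2 and 54, 58.1, 89 and 51.9 CPM, with clone 5 far above the rest in both groups, and its log2 fold change was -0.01 (-0.15 to 0.12). By TPM, SMARCA2 made up 14.5% ± 2.74 of the ATPase pair without and 13.9% ± 2.32 with doxycycline (SD, n = 4 each). The core subunit SMARCB1, which is lost in rhabdoid tumours, had a log2 fold change of 0.01 (-0.12 to 0.14), the scaffolds SMARCC1 and SMARCC2 -0.08 (-0.21 to 0.05) and -0.03 (-0.17 to 0.11), and SMARCE1 -0.01 (-0.13 to 0.11). ARID1A and ARID1B, the DNA-binding subunits of canonical BAF, had -0.07 (-0.26 to 0.12) and -0.01 (-0.19 to 0.16). Treated clone 6 had the lowest ARID1A level of the 8 libraries, 249.9 CPM. Of the PBAF genes, ARID2 was lower in 4 of 4 pairs at -0.16 (-0.32 to -0.00, edgeR adjusted p = 0.19), PBRM1 and PHF10 were at -0.08 and 0.03, and BRD7, with 12.8% of its reads matched, was at 0.30 (0.02 to 0.58, edgeR adjusted p = 0.171). BRD9, the bromodomain protein of the non-canonical complex, was at 0.03 (-0.14 to 0.20).

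The exchangeable subunits were compared because FEZF1 acts in neural development and the exchange marks the passage to neurons. DPF3 was at 13.2, 12.7, 12.9 and 12 CPM in the untreated polyclonal population and clones 3, 5 and 6 and at 17.2, 16, 24 and 13.7 CPM with doxycycline. All 4 treated libraries lay above all 4 untreated ones, and treated clone 5 was the highest by a wide margin. The log2 fold change of 0.45 (standard error 0.126, 95% interval 0.16 to 0.74) did not pass the test (edgeR adjusted p = 0.071), and DESeq2 with the same block gave an adjusted p of 0.0378. In all, DPF3 was called under 3 of 12 alternatives. Without clone 5 its log2 fold change was 0.28 (edgeR adjusted p = 0.26). DPF1 was at 3.85, 3.75, 4.06 and 2.77 CPM and 4.82, 3.87, 5.74 and 4.16 CPM, higher in each of the 4 pairs, with a log2 fold change of 0.36 (-0.01 to 0.73, edgeR adjusted p = 0.216). With curated transcripts alone the log2 fold change of DPF1 was 0.13 (edgeR adjusted p = 0.867). SS18L1, the calcium-responsive neuronal partner, was at 19.3, 15.9, 17 and 14.7 and 15, 14.8, 19.5 and 15.1 CPM, up in 2 pairs and down in 2 (log2 fold change -0.06, -0.31 to 0.19). ACTL6B was at 0.0253, 0.0315, 0.0726 and 0 CPM without and 0.0307, 0.0291, 0 and 0.0841 CPM with doxycycline, at or near 0 reads throughout.

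Their ubiquitous counterparts did not pass the test. PHF10 is given above with the PBAF genes, and its ratio to DPF1 or DPF3 was not computed. ACTL6A was at 123, 137, 129 and 164 CPM and 121, 128, 116 and 159 CPM, slightly lower in each of the 4 pairs (log2 fold change -0.08, -0.20 to 0.04, edgeR adjusted p = 0.378), and clone 6 was highest in both groups. SS18, which in synovial sarcoma is part of a fusion, was at 79.6, 81.4, 82.9 and 93.2 and 81.8, 101, 85.9 and 97.8 CPM, slightly higher in each pair (log2 fold change 0.12, -0.03 to 0.27, edgeR adjusted p = 0.309). The matched DPF2 reads gave 2.83, 1.83, 3.08 and 2.45 CPM and 1.11, 4.36, 4.71 and 4.08 CPM, but they were 2.40% of what the authors' mean implies, so the level of DPF2 and its ratio to DPF1 or DPF3 cannot be read here. ACTL6B had at most 2 reads in a library, fewer than the 3 that a count of 0 allows, so no share of its pair is given. SS18L1 made up 13.4% ± 2.0 and 12.2% ± 2.35 of its pair, an underestimate since 34.3% of its reads were matched. EZH1 made up 5.43% ± 1.25 and 5.4% ± 0.80 of the EZH pair (SD, n = 4 each).

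Of 12 log2 TPM ratios between paralogs, 3 cannot be read, those of DPF1 and DPF3 to DPF2 and of ACTL6B to ACTL6A. Of the other 9, none reached an unadjusted p of 0.05 in the exact permutation test over the 70 ways to split the 8 libraries (2-sided, smallest p possible 0.0286, smallest p observed 0.171 for SMARCD3 to SMARCD1, adjusted p over the 12 all 1). The means with and without doxycycline differed by 0.01 for EZH1 to EZH2, 0.04 for RING1 to RNF2, -0.13 for CBX7 to CBX2, -0.06 for SMARCA2 to SMARCA4, 0.04 for SMARCC2 to SMARCC1, 0.03 for ARID1B to ARID1A and -0.17 for SS18L1 to SS18 on the log2 scale. The permutation test does not use the pairing, and a sign-change test, which does, cannot reach 0.05 with 4 pairs. SMARCD3 to SMARCD1 was the 1 ratio of these 9 that moved in the same direction in 4 of 4 pairs.

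**Figure D3:**
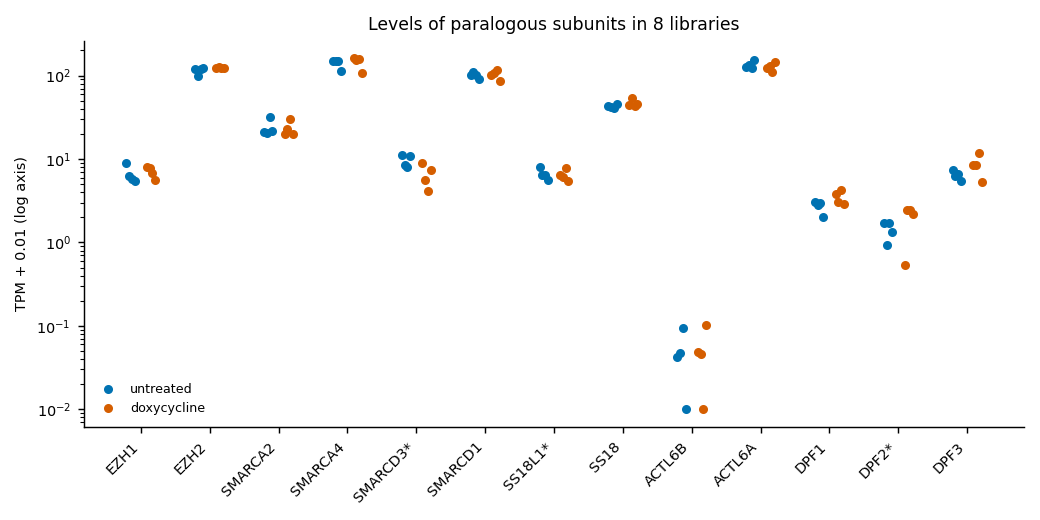
TPM plus 0.01 on a log axis for paralogous subunits in the 4 untreated (blue) and 4 doxycycline (orange) libraries, with an asterisk on members for which under 80% of the authors' mean reads were matched. EZH2, SMARCA4, SMARCD1 and ACTL6A lie near 100 TPM, ACTL6B lies below 0.1 TPM, and blue and orange points lie side by side for most genes.

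More members differed between origins than with doxycycline. With treatment kept in the model, 16 of 48 members (33.3%) differed between the polyclonal population and clones 3, 5 and 6 at an adjusted p below 0.05, against 39.4% of all genes tested. They were SMARCA2, PCGF5, SMARCE1, PHC3, ACTL6A, PCGF6, SMARCA4, CBX6, CBX7, ARID1A, RNF2, CBX2, PHF19, PCGF2, RBBP7 and PHC2, of which PCGF5 was also among the 5 that passed the test for doxycycline. Each origin is represented by 2 libraries and each clone by 1 clone. The highest origin was clone 6 for 6 of the 16, clones 3 and 5 for 4 each and the polyclonal population for 2, and the lowest was clone 6 for 7.

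SMARCA2 stood out in clone 5, at 91.1 and 89 CPM without and with doxycycline, against 51.9 to 58.1 CPM in the other 6 libraries (edgeR adjusted p = 0.00127 over the 4 origins, and 0.727 without clone 5). PCGF5 was lowest in clone 5 at 19.9 and 27.5 CPM and highest in clone 6 at 41.1 and 53.5 CPM, a ratio of 2.0 between the means (edgeR adjusted p = 0.0016). Clone 6 had the highest SMARCE1, 103 and 106 CPM against 69.7 to 86.8 elsewhere, and the highest ACTL6A, PCGF6, RNF2 and RBBP7. It had the lowest SMARCA4 (384 and 377 CPM against 457 to 509), ARID1A (319 and 249.9 CPM against 389 to 445), CBX6 (162 and 154 CPM against 194 to 221) and CBX2 (116 and 117 CPM against 136 to 152). In clone 6 the subunits of BAF thus did not move together, with SMARCE1 and ACTL6A at their highest and SMARCA4 and ARID1A at their lowest. The polyclonal population had the highest CBX7, 7.92 and 9.36 CPM against 3.31 to 5.17, and PHC3, 49.1 and 57.2 CPM against 29.5 to 38.9, and clone 3 had the highest PHC2, 328 and 293 CPM against 244 to 278. PHF19 was highest in untreated clone 3 and lowest in treated clone 5. Without clone 6, 5 members differed between the remaining origins (SMARCA2, PCGF5, PHC3, CBX7 and ARID2), and the adjusted p of the other 12 was between 0.0546 and 0.818. Without the polyclonal population CBX7, PHC3, PHC2 and RBBP7 did not pass (edgeR adjusted p = 0.347, 0.283, 0.143 and 0.055). PHC2 did not pass with clone 3, 5 or 6 left out either (edgeR adjusted p = 0.404, 0.0569 and 0.0565). When an origin other than clone 6 was left out, 12 to 17 members passed.

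**Figure D4:**
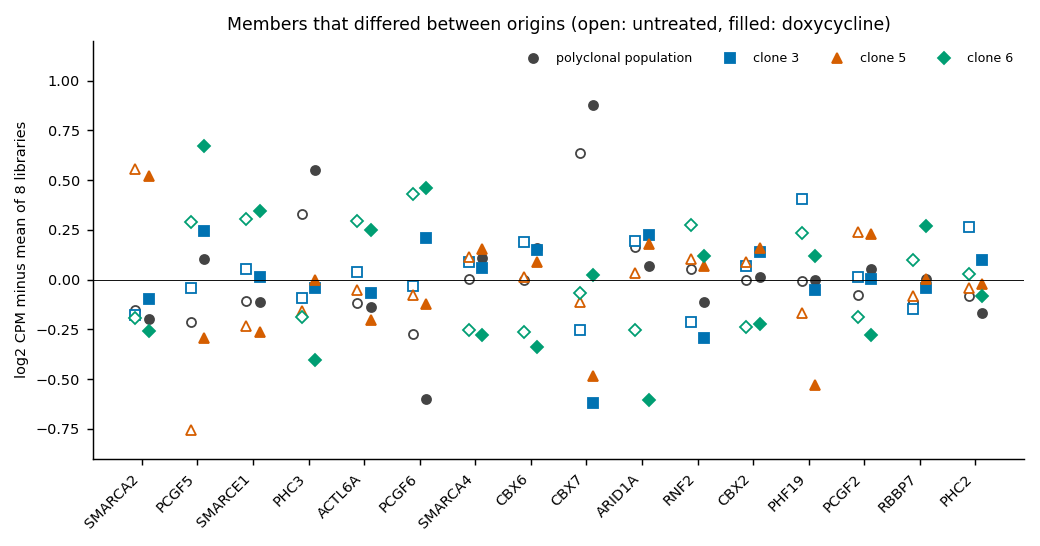
Log2 CPM minus the mean of the 8 libraries for the 16 members that differed between origins, ordered by adjusted p, with open symbols for untreated and filled symbols for doxycycline libraries. The 2 symbols of an origin lie close together for most genes; clone 5 stands apart in SMARCA2, clone 6 in SMARCE1 and SMARCA4, and the polyclonal population in CBX7 and PHC3.

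Genes of other chromatin complexes were counted beside the members. Of 78 such genes in 6 lists, 77 were tested and 5 (6.49%) changed, 1 higher and 4 lower, near the 7.62% of all genes. In the list of variant PRC1 and PR-DUB genes, 2 of 22 fell: FBRSL1, a relative of the PRC1 partner AUTS2, from 68.6 ± 13.5 to 44.6 ± 10.6 CPM (log2 fold change -0.63, edgeR adjusted p = 0.00695, 76.3% of reads matched), and BCOR, the corepressor of the complex with PCGF1, from 92.1 ± 8.42 to 69.4 ± 12.6 CPM (-0.42, edgeR adjusted p = 0.0255; SD, n = 4 each). In the list of NuRD and CHD genes, 2 of 12 fell, and they were paralogs: MBD2, which binds methylated DNA, from 27.6 ± 2.69 to 16.5 ± 1.96 CPM (-0.74, edgeR adjusted p = 0.010), and MBD3, from 141 ± 16.1 to 116 ± 8.61 CPM (-0.27, edgeR adjusted p = 0.0354). Of 13 INO80 and SRCAP genes 1 rose, INO80B, from 15.4 ± 1.37 to 21.8 ± 1.53 CPM (0.50, edgeR adjusted p = 0.0222). All 5 moved in 1 direction in 4 of 4 pairs. No call was made among 6 tested further BAF genes, 11 ISWI genes or 13 COMPASS and H3K27 demethylase genes by edgeR. DESeq2 with the block made none there either. In edgeR 3, 0 and 2 of these genes had an unadjusted p below 0.05. For 26 of the 78 genes, fewer than 80% of the reads of the authors' mean were matched. These included 2 of 7 listed further BAF genes, 3 ISWI genes and 6 COMPASS and H3K27 demethylase genes. The lowest in these lists were BICRA (7.20%), KMT2C (15.9%) and SMARCA5 (21.6%). A missing call for such genes rests on part of their reads. Of the 52 tested genes with at least 80% matched, 4 were called.

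Some genes of proliferation fell in the same comparison. Of 20 such genes 7 fell (PCNA, MCM3, MCM4, MCM5, MCM6, CCNB1 and E2F1) and none rose, while 13 did not pass the test (3.9% of all genes were called lower). DESeq2 with the block called 13 of the 20, all lower. In 4 of 4 pairs 15 of the 20 were lower, against 15.9% of all genes, and the summed level of the 20 was 6200.3 to 6768 CPM in the untreated and 5270.4 to 5802 CPM in the doxycycline libraries, without overlap. Their part in the changes of the members was not tested. Of the 9 Ewing sarcoma markers 5 were called (55.6%, all genes 7.62%). NR0B1, NKX2-2, CCK and IL1RAP rose (3.72% of all genes were called higher), and FEZF1, the target of the shRNA, fell. DESeq2 with the block called 6 of the 9, 5 higher and 1 lower. The 10 tested neuron markers made no call in edgeR or in DESeq2 with the block, with 1 at an unadjusted p below 0.05.

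The 5 changes depended on the model in their call and, except for PCGF5, not in their direction. Without origin as a block edgeR called 0 members (5 at an unadjusted p below 0.05) and 1 gene in all, DESeq2 without the block called PHF1, and DESeq2 with the block called the same 5 and DPF3. PHF1 was called under 8 of 12 alternatives, SMARCD2 under 7, SMARCD3 under 6, and MTF2 and PCGF5 under 4 each. Leaving out 1 pair of cultures kept the log2 fold change of PHF1 between 0.40 and 0.55, of MTF2 between 0.23 and 0.32, of PCGF5 between 0.31 and 0.39, of SMARCD2 between -0.41 and -0.31 and of SMARCD3 between -0.71 and -0.53. Without the polyclonal population 3 members were called, without clone 3 only PHF1, and without clone 5 or clone 6 none (7 at an unadjusted p below 0.05 in each), and all genes called then numbered 699, 461, 175 and 230.

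**Figure D5:**
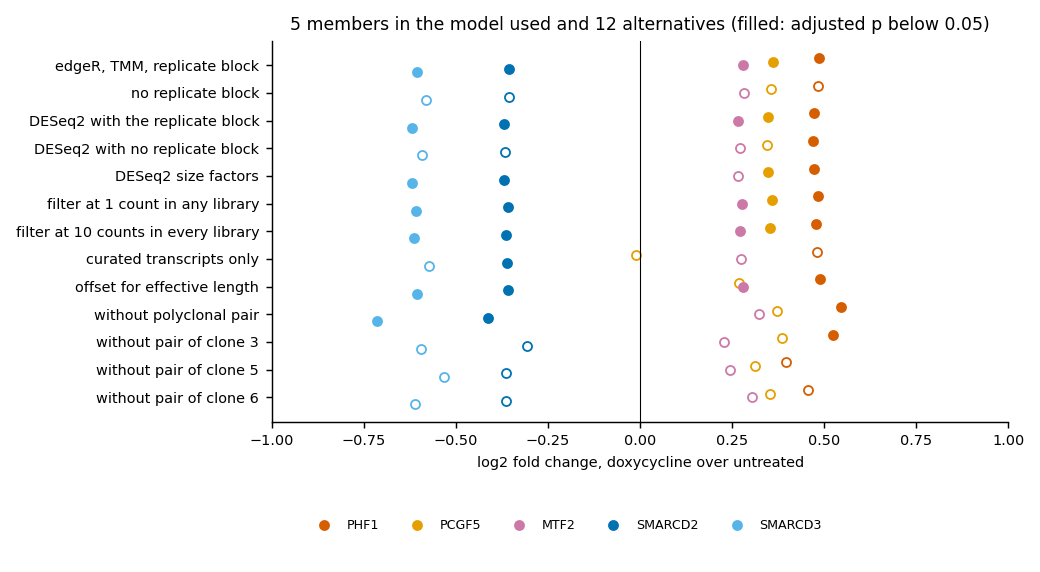
Log2 fold change of the 5 members (colours) in the model used here (top line) and under 12 alternatives, filled where the adjusted p was below 0.05. The points of each gene stay near their place from line to line except PCGF5 with curated transcripts only, which lies at 0, and filled points thin out without the block and when a pair is left out.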

How the data were processed

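RNA from A673/TR/shFEZF1 cells, in the absence and presence of doxycycline (72 h), was sequenced by the authors as 2 × 50 base pairs from a stranded mRNA kit, and transcripts were quantified with Salmon on GRCh38. For each library the deposited files give, per RefSeq transcript, its estimated counts and TPM, made by the authors with Salmon. A further deposited table was made by the authors with DESeq2 2.11.40.6: only its mean, the average signal of normalized counts over the authors' libraries, was used, for the share of reads matched, and its fold changes and p-values were not used.

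Of 158867 transcripts 72.6% were matched to a symbol by RefSeq accession. Estimated counts were summed per symbol, rounded, and passed to edgeR 4.0.16 in R 4.3.3, with filterByExpr (15991 genes kept), TMM factors, the quasi-likelihood test with origin as replicate block and a Benjamini-Hochberg threshold of 0.05. Origins pair the cultures, since both come from the same cells: deviations of log2 CPM (prior count 2) correlated at 0.406 to 0.590 within and -0.395 to 0.179 between origins. DESeq2 1.42.0, other filters, size factors, transcripts and left-out pairs were alternatives. TPM ratios used a pseudocount of 0.1, scipy 1.17.1 and an exact permutation test. Values in every library were given for members that passed, the neural subunits and their counterparts except PHF10, EZH1, EZH2, SMARCA2, SMARCA4, and the highest and lowest member by TPM. Other members were given by their fold change, and of other lists at most 3 called genes each. The members and lists were chosen with earlier results of these data known. Promoter windows are from RefSeq (GRCh38.p14), with 43 of 49 members matched.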

Additional observations from a re-analysis of the deposited data

Results flagged for a closer look

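In each group of 4 libraries the highest or lowest was set against the others by Dixon's test for members with a test result and for FEZF1, 98 groups in all. Of these, 8 held a library past the 95% critical value, where chance gives about 1 in 20 groups, here 4.9. SMARCA2 in clone 5 was far above the rest in both groups, at 91.1 CPM without doxycycline (others 54.2 to 55.8) and 89 CPM with it (others 51.9 to 58). The polyclonal population without doxycycline was high in CBX7, at 7.92 CPM (others 4.29 to 4.87), and in PHC3, at 49.1 CPM (others 34.3 to 36.5). Clone 6 with doxycycline was high in RBBP7, at 258 CPM (others 209 to 215), and low in JARID2, at 74.6 CPM (others 92.8 to 94.9), and in CBX6, at 154 CPM (others 206 to 217). SS18L1 was high in clone 5 with doxycycline, at 19.5 CPM (others 14.8 to 15.1).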

How the results depend on the processing

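With the replicate block, which pairs the cultures by origin, 5 members passed the test. With no replicate block edgeR called 0 members, 0 of the other chromatin genes and left FEZF1 at a log2 fold change of -0.80 that did not pass (adjusted p = 0.290), and DESeq2 without the block called 1 member and 2 other chromatin genes. With curated transcripts only, 1 member (SMARCD2) and 2 other chromatin genes were called, PCGF5 turned to -0.0102 and SMARCA4 to -0.00969. Leaving out 1 pair of cultures gave 0 to 3 members, 2 to 4 other chromatin genes and 5 to 17 members that differed between origins, and moved SMARCA4 between -0.00797 and 0.0416 and SS18L1 between -0.164 and 0.0377. Among the 41 members with at least 80% of reads matched, chosen after seeing the data, 3 of 40 tested were called. Of the paralog ratios, none of which passed the permutation test, EZH1 to EZH2 turned to -0.00758 with a pseudocount of 1 TPM, and leaving out 1 pair moved EZH1 to EZH2 between -0.0658 and 0.0779, RING1 to RNF2 between -0.0161 and 0.126, PCGF2 to BMI1 between -0.14 and 0.10, ACTL6B to ACTL6A between -0.21 and 0.39, DPF1 to DPF2 between -0.44 and 0.56 and DPF3 to DPF2 between -0.41 and 0.46. The causes were not tested. FEZF1 kept its direction under all 12 alternatives. Depth limits ACTL6B, and missing transcript matches limit DPF2, BRD7, SS18L1 and SMARCD3.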
